A study of Mus musculus with 6 samples.

Results

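The interstitial collagens are the genes Col1a1, Col1a2, Col3a1, Col5a1, Col5a2, Col6a1, Col6a2, Col6a3, Col8a1 and Col12a1, taken by gene symbol. All 10 were measured, among 18193 genes, by 23 of 45037 probe sets. A probe set is a group of short probes on the array that reads 1 transcript region. Their messenger RNA was measured on Affymetrix arrays. The cells were SVI podocytes, a mouse line with conditional immortalization, from the filtering epithelium of the kidney glomerulus. The cells had been differentiated for 1 to 2 weeks at 38 °C in RPMI medium with 10% FBS. Of the 6 samples, 3 came from unstretched cells and 3 from cells under cyclic biaxial stretch for 3 days at 0.5 Hz and up to 5% linear strain. All samples share this single line, which carries no further label of genotype, strain or agent. The submitters mention independent batches but not whether these are cultures, so p-values measure the spread between these samples, which may be partly technical.

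Collagens are proteins of 3 chains wound into a helix, and most are secreted. The fibrillar ones leave the cell as procollagen and are trimmed and crosslinked outside it. Collagens I and III form the thick fibrils of connective tissue, collagen V sits inside those fibrils and sets their diameter, and collagen XII coats them. Collagen VI makes beaded microfilaments around cells, and collagen VIII makes short-chain networks near basement membranes. In the healthy glomerulus podocytes contribute mainly to the basement membrane, whose main collagen is type IV, and interstitial collagens are known there mostly from scarring.

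Stretched podocytes had more Col6a1, Col6a2, Col12a1 and Col5a2 messenger RNA and less Col8a1, while Col1a1, Col1a2, Col3a1, Col5a1 and Col6a3 did not pass the test. Each gene is read below by its brightest probe set over the 6 arrays, and by these 4 of 10 rose, 1 fell and 5 did not pass (limma, Benjamini-Hochberg adjusted p under 0.05 over all genes). Among all genes 14.7% passed, 7.98% upward and 6.76% downward. Upward calls were 54.2% of calls, 42.7% after quantile normalization again, 44.6% with cyclic loess and 61.8% with arrays centred on their medians. Each of these scalings gave the same counts of members, 4 up and 1 down. The median log2 change of the 10 genes was 0.11, against -0.02 over all genes. The stretched and unstretched values did not overlap in 5 members that were higher and 1 that was lower. Over all genes the groups did not overlap in 32.6%, 16.0% higher and 16.6% lower.

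Correlations over all probe sets were 0.993 to 0.997 between arrays of the same group and 0.987 to 0.990 between arrays of different groups. The SD of log2 values over probe sets was 2.03 to 2.05 on unstretched and 2.07 to 2.10 on stretched arrays, while their means are made equal by RMA. The beta-actin 3' minus 5' control difference, a sign of RNA quality, was 1.57 ± 0.03 in unstretched and 1.30 ± 0.05 in stretched cells (SD, n = 3 each), and its part in the results below was not tested. Levels are not compared between genes, because probe sets differ in brightness for the same amount of RNA. Scanner detection calls were not used here, so a low value can be background. In bulk RNA a change in the number of cells of a type and a change in RNA per cell cannot be told apart.

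The beginnings of 4 member genes are shown first, since the collagen VI genes include the member with the largest rise and one that did not pass, and Col8a1 is the member that fell. Each window runs from 250 bases before to 50 after an annotated transcript start (RefSeq, build GRCm38.p6). Windows were at hand for 7 of the 10 members. Capitals mark the motifs searched on both strands.

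Col6a1, chr10:76725995-76726294, minus strand: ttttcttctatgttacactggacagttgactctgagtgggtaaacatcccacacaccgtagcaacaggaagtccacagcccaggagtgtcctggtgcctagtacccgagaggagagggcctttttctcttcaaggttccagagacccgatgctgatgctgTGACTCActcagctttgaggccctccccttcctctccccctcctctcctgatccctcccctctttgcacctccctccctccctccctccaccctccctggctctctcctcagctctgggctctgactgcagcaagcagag
Col6a2, chr10:76623581-76623880, minus strand: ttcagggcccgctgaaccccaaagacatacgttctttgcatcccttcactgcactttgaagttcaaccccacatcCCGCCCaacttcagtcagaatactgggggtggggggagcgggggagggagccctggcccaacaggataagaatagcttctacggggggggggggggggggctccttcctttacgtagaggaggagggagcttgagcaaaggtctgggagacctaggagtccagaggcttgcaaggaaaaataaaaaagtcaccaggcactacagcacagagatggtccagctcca
Col6a3, chr1:90843922-90844221, minus strand: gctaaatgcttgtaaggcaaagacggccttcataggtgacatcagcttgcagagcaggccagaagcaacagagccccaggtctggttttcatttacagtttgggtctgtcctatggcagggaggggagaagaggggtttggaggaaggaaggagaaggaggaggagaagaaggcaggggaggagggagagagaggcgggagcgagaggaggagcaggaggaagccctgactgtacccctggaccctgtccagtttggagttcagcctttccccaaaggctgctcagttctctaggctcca
Col8a1, chr16:57754688-57754987, minus strand: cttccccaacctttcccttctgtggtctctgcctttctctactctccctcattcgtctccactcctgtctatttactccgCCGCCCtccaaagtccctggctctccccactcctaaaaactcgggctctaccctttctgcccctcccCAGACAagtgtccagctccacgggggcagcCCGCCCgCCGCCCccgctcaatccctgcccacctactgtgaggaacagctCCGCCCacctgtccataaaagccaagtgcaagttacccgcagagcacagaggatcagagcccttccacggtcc

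Of 32851 windows of this length over the genome, 37.4% held the CCAAT box and 13.6% the TATA letters TATAAA. The GC box GGGCGG was in 35.7% and the AP-1 motif TGANTCA in 7.81%. The TEAD motif GGAATG was in 14.7%, the letters CAGACA of the Smad-bound box in 21.0% and the CArG box of SRF in 1.63%. Matches that overlap were each counted. The Col6a1 window held 1 motif, the AP-1 letters beginning 90 bases before the start. The Col6a2 window at the outermost start held 1 GC box, and a window at another listed start of that gene, lying downstream, held 3 GC boxes and 1 GGAATG. In the Col6a3 window none of the letters searched occurred. That start is not the outermost one annotated for Col6a3. The Col8a1 window held 4 GC boxes and 1 CAGACA. CpG counts were 3 in Col6a1, 6 in Col6a2, 3 in Col6a3 and 12 in Col8a1, against a median of 7 over all windows. The match of letters is a description and no binding was measured.

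**Figure D1:**
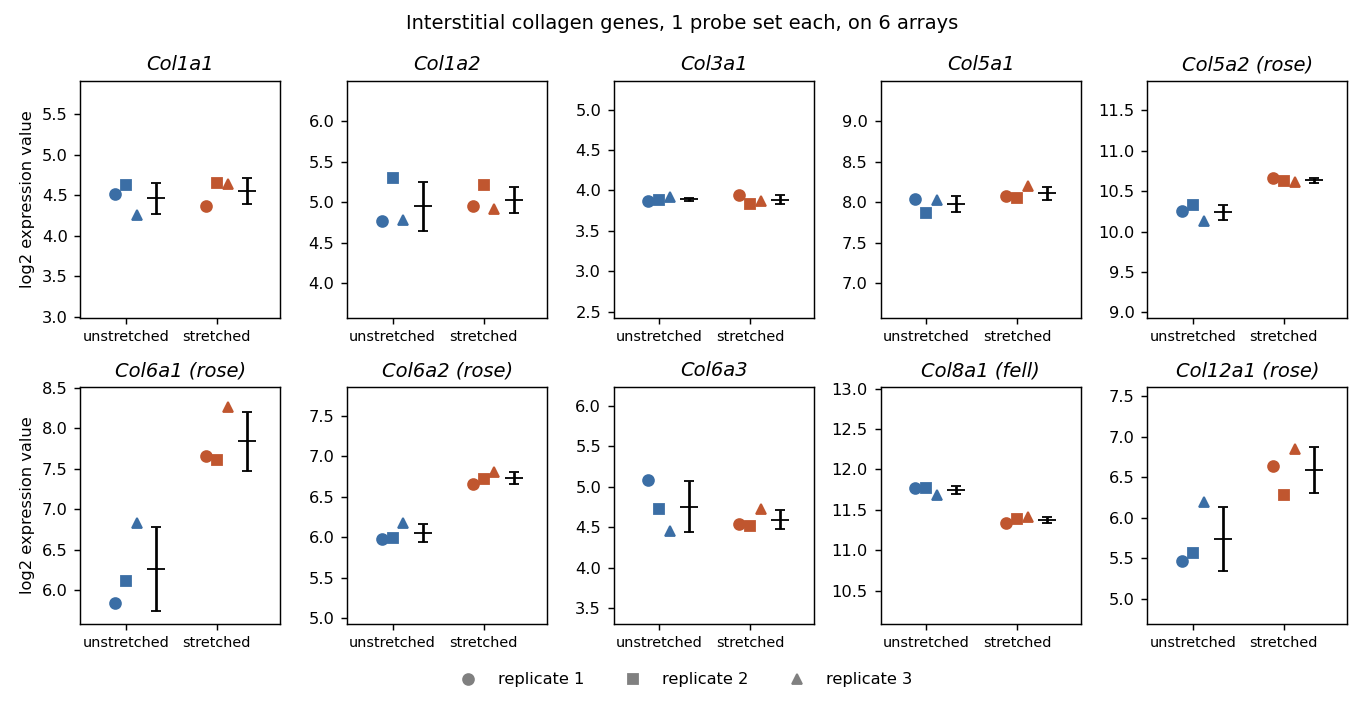
Log2 expression values (y axis, the same span in every panel) of the 10 collagen genes on 3 unstretched and 3 stretched arrays, with symbols for replicate numbers and the mean ± SD beside them. Col6a1 moved most, from a mean of 6.26 to 7.84, whereas Col3a1 lay near 3.89 in both groups.

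Collagen VI is built from an alpha 1, an alpha 2 and usually an alpha 3 chain, of which the genes of the first pair rose and that of the alpha 3 chain did not pass. Col6a1, which encodes the alpha 1 chain and is read by a single probe set, had log2 values of 5.83, 6.11 and 6.83 in unstretched replicates 1 to 3 and 7.65, 7.61 and 8.26 in stretched replicates 1 to 3. The lowest stretched array lay 0.77 above the highest unstretched one, and replicate 3 was the highest of each group. Col6a1 rose by 1.58 on the log2 scale (SE 0.24, 95% interval 1.06 to 2.10, limma adjusted p = 0.00151), a 2.99-fold rise.

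Col6a2 encodes the alpha 2 chain. Its log2 values were 5.98, 5.99 and 6.18 in unstretched and 6.66, 6.72 and 6.81 in stretched cells. The values were tight within each group and the groups lay 0.48 apart. Col6a2 rose by 0.68 (SE 0.09, 95% interval 0.48 to 0.88, limma adjusted p = 7.82e-04), or 1.60-fold. The suffix of this probe set marks probes that may bind other transcripts. The gene's other probe set, with a suffix for transcripts of 1 gene, ran from 5.81, 5.93 and 6.08 to 6.55, 6.45 and 6.76. It rose too, by 0.65 (SE 0.11, limma adjusted p = 0.00449, taken over all probe sets).

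Col6a3 encodes the long alpha 3 chain. Its only probe set had log2 values of 5.08, 4.73 and 4.45 in unstretched and 4.53, 4.52 and 4.73 in stretched cells. The groups overlapped, and unstretched replicate 1 was the highest array of all. Stretched minus unstretched was -0.16 log2 units, which did not pass (SE 0.14, 95% interval -0.47 to 0.15, limma adjusted p = 0.519), and the interval does not reach the rise of 0.68 measured for Col6a2. Its mean of 4.67 lay below the median gene's 5.74, where a change can be compressed.

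Differences between partner chains were then taken within each array, which removes a shift that is equal for all probe sets of an array. A shift that depends on brightness or on RNA quality can remain. Col6a1 minus Col6a2 went from -0.15, 0.12 and 0.65 in unstretched to 0.99, 0.89 and 1.45 in stretched cells, a shift of 0.90 on the log2 scale. Col6a1 minus Col6a3 shifted by 1.74 and Col6a2 minus Col6a3 by 0.84. In each of these 3 pairs every stretched array lay above every unstretched array. The two-sided exact permutation p was 0.1 for each, the smallest that 3 against 3 arrays allow, and 0.167 after adjustment over the 5 pairs of chains tested, so none of the shifts passed 0.05.

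**Figure D2:**
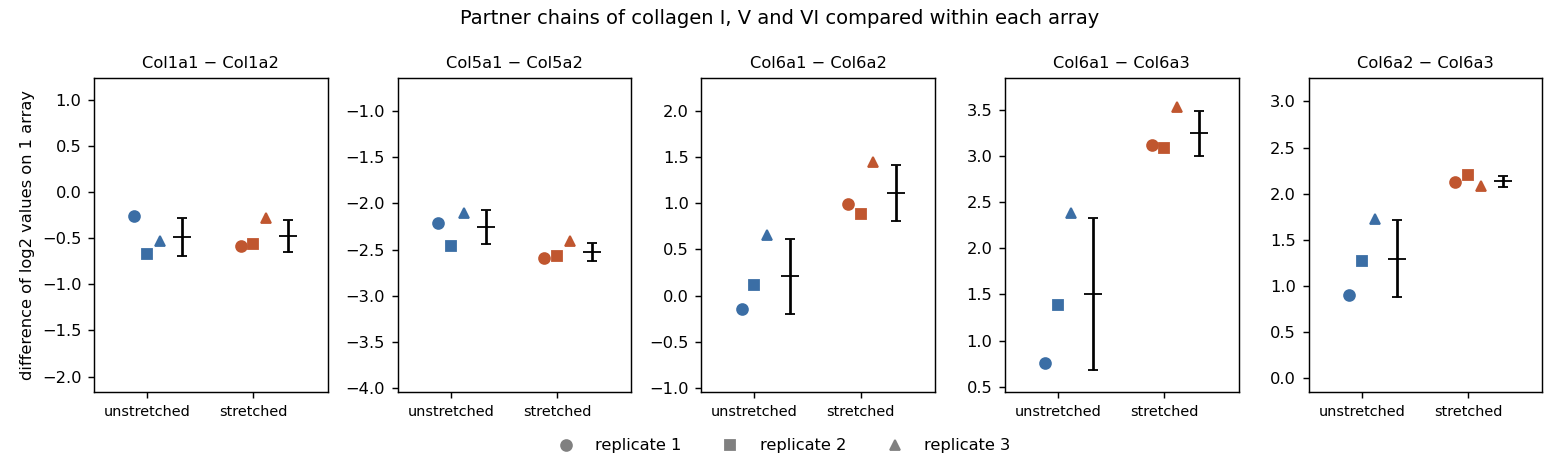
Difference of log2 values between 2 partner chains on the same array (y axis, equal spans) for 5 pairs in unstretched and stretched cells, with the mean ± SD beside the points. The 3 collagen VI pairs shifted upward by 0.90, 1.74 and 0.84, while Col1a1 minus Col1a2 shifted by 0.01; only the shift of a pair can be read, not its level.

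Col6a1 and Col6a2 are neighbours in the RefSeq gene order on chromosome 10, with no other protein-coding gene between them, and Col6a3 lies on chromosome 1. The coding genes on either side of the pair, looked up by position after values were seen, were Ftcd with a log2 change of -0.09 (SE 0.09, limma adjusted p = 0.582) and Pcbp3 with 0.08 (SE 0.09, adjusted p = 0.593). Neither passed.

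Collagen V occurs mostly as a trimer of alpha 1 and alpha 2 chains. Col5a2, the alpha 2 gene, had log2 values of 10.25, 10.33 and 10.13 in unstretched and 10.67, 10.62 and 10.61 in stretched cells. The stretched arrays were within 0.1 of each other and all lay above the unstretched ones. It rose by 0.40 (SE 0.09, 95% interval 0.21 to 0.59, limma adjusted p = 0.0108), or 1.32-fold. Without stretched replicate 1 the adjusted p was 0.0499. The second Col5a2 probe set, with a mean of 7.46, had nearly the same change, 0.38, and did not pass (SE 0.11, limma adjusted p = 0.0534, taken over all probe sets).

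Col5a1, the alpha 1 gene, gave different sizes of change by probe set. The probe set that stands for the gene had log2 values of 8.04, 7.87 and 8.03 in unstretched and 8.08, 8.05 and 8.20 in stretched cells, barely apart, and its log2 change of 0.13 did not pass (SE 0.09, 95% interval -0.07 to 0.33, limma adjusted p = 0.390). A second went from 7.45, 7.22 and 7.62 to 7.67, 7.77 and 7.92, a log2 change of 0.36 (SE 0.12, adjusted p = 0.0830 over all probe sets in limma). The dimmest went from 5.91, 5.34 and 6.19 to 6.38, 6.54 and 6.73 and rose by 0.74 (SE 0.19, adjusted p = 0.0298 over all probe sets in limma). In all 3 the stretched arrays lay above the unstretched ones, and with the 3 averaged Col5a1 rose by 0.41 (limma adjusted p = 0.0493). Col5a1 minus Col5a2 shifted by -0.27 between the groups by the brightest probe sets (exact permutation p = 0.2, 0.25 after adjustment) and by 0.02 with all probe sets averaged, so whether the chains of collagen V differ turns on the probe set.

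**Figure D3:**
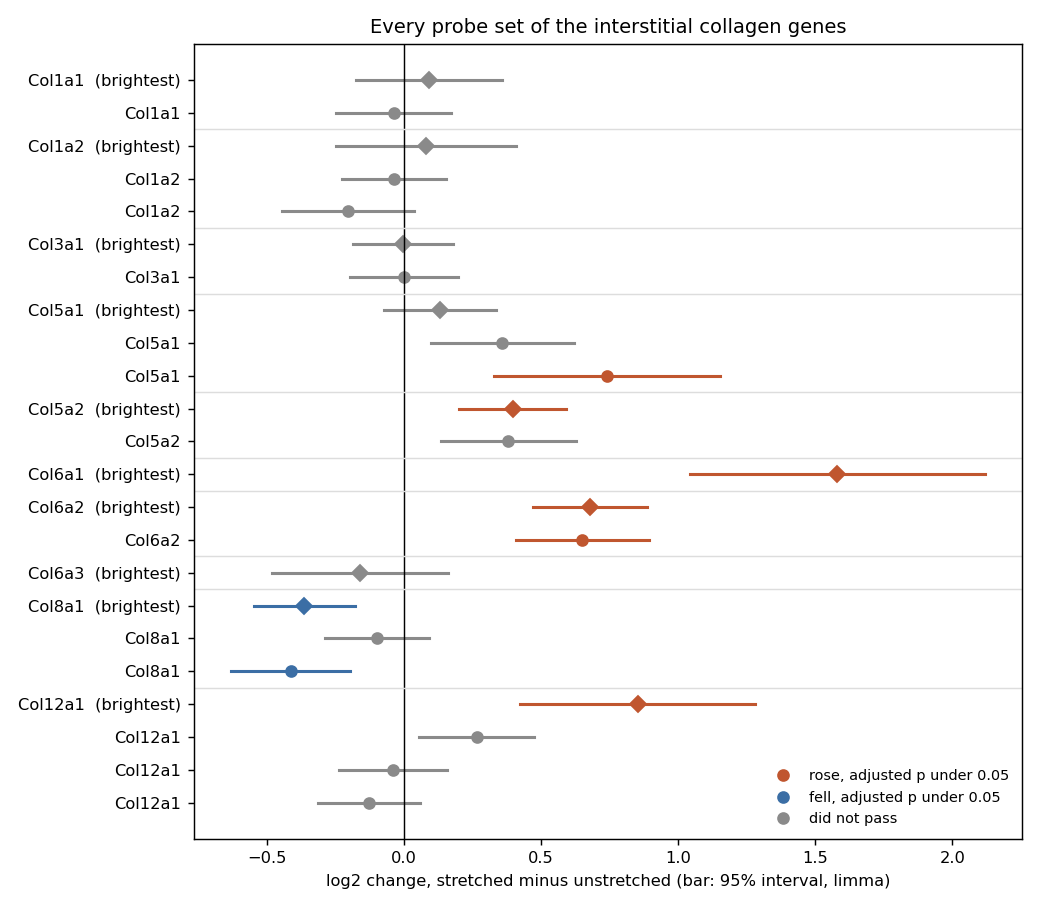
Log2 change between stretched and unstretched cells (x axis) with its 95% interval for each of 23 probe sets, grouped by gene, with the brightest of each gene as a diamond and colours for probe sets that rose, fell or did not pass over all probe sets. Of the 23, 6 rose and 2 fell, and those of Col5a1 and Col12a1 spread most widely within 1 gene.

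Collagens I and III, the main fibril proteins of scar tissue, showed no change that passed. Col1a1, the alpha 1 chain of collagen I, had log2 values of 4.51, 4.63 and 4.25 in unstretched and 4.37, 4.65 and 4.64 in stretched cells, with a log2 change of 0.09 (SE 0.12, 95% interval -0.17 to 0.35, limma adjusted p = 0.676). Col1a2, the alpha 2 chain, had 4.77, 5.30 and 4.78 against 4.96, 5.21 and 4.91, a log2 change of 0.08 (SE 0.14, 95% interval -0.24 to 0.40, adjusted p = 0.777). In both genes the groups overlapped. Col3a1, the single chain of collagen III, had 3.87, 3.88 and 3.91 against 3.95, 3.84 and 3.87, a log2 change of -0.01 (SE 0.08, 95% interval -0.18 to 0.17, adjusted p = 0.976).

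The 3 genes are read by 7 probe sets in all, whose log2 changes lay between -0.20 and 0.09 and whose adjusted p ran from 0.286 to 0.998 in limma. Mean log2 values of these 7 probe sets lay between 3.41 and 4.99, all below the median gene's 5.74. At such values RMA compresses differences, so the intervals bound the measured change and not that of the RNA. Col1a1 minus Col1a2 shifted by 0.01 between the groups (exact permutation p = 1). Col3a1 and Col5a2 stand next to each other on chromosome 1, yet Col5a2 rose while the log2 change of Col3a1 was -0.01; the difference between them was not tested.

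Collagen XII, a fibril-associated collagen with a very large chain, gave the second largest rise when each gene is read by its brightest probe set. Col12a1 had log2 values of 5.46, 5.56 and 6.19 in unstretched and 6.64, 6.29 and 6.84 in stretched cells. Unstretched replicate 3 came within 0.09 of stretched replicate 2, and the groups did not overlap. Col12a1 rose by 0.85 (SE 0.19, 95% interval 0.44 to 1.27, limma adjusted p = 0.0121), or 1.81-fold. The other 3 probe sets of Col12a1 did not pass. The next in brightness had a log2 change of 0.26 (SE 0.09, adjusted p = 0.109 over all probe sets), and the others, with means of 4.05 and 3.28, had -0.04 and -0.13. The call ended with all probe sets averaged (log2 change 0.24, adjusted p = 0.111), without unstretched replicate 2 (adjusted p = 0.0509) and without stretched replicate 3 (adjusted p = 0.0567).

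Col8a1, the alpha 1 chain of the short-chain collagen VIII, was the member that fell. Its log2 values were 11.77, 11.77 and 11.68 in unstretched and 11.34, 11.38 and 11.42 in stretched cells, with 0.27 between the groups. Col8a1 fell by 0.36 (SE 0.08, 95% interval of the change -0.54 to -0.19, limma adjusted p = 0.0124), a level 1.29-fold lower. A dimmer probe set went from 9.93, 9.77 and 9.91 to 9.32, 9.57 and 9.48 and fell by 0.41 (SE 0.10, limma adjusted p = 0.0222, taken over all probe sets). The other went from 11.54, 11.52 and 11.54 to 11.38, 11.39 and 11.53, where stretched replicate 3 reached the unstretched values, and its change of -0.10 did not pass (adjusted p = 0.529). Without stretched replicate 1 the adjusted p of Col8a1 was 0.0588.

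Over every probe set, 6 of the 23 rose, 2 fell and 15 did not pass, against 11.0% of all probe sets called, 6.47% upward and 4.51% downward. In 10 of the 23 the stretched arrays lay above the unstretched ones, in 3 below and in 10 the groups overlapped. Over all probe sets the groups did not overlap in 29.5%, 14.2% higher and 15.3% lower. No member had probe sets that passed in opposite directions. In Col12a1, however, the stretched arrays lay above the unstretched ones in the brighter probe sets and below them in the dimmest (mean 3.28).

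Among the 5 members that passed, unstretched replicate 3 was the unstretched array nearest to the stretched mean in Col6a1, Col6a2, Col8a1 and Col12a1, and the farthest in Col5a2. Without that array the log2 change was 1.87 for Col6a1, 1.08 for Col12a1 and -0.39 for Col8a1, and 0.34 for Col5a2. Taken by replicate number, stretched minus unstretched was 1.82, 1.50 and 1.43 for Col6a1 and 1.19, 0.72 and 0.65 for Col12a1. For Col6a2 it was 0.68, 0.73 and 0.63, the most even of the rises above 0.5. The genes whose centred profiles over the 6 arrays lay nearest to that of Col6a2, the called member with the largest moderated statistic, were Spop (root mean square distance 0.02 log2 units), the matrix glycoprotein gene Tnc (0.02) and Serpinb6a (0.04), out of 9096 candidates. With 6 arrays in 2 groups this distance mostly picks genes with a change of like size, here 0.66, 0.68 and 0.73. Shared regulation was not tested.

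Of the other collagens, 14 fibrillar and fibril-associated genes were measured, of which 0 rose and 1 fell, and 18 network, beaded and transmembrane genes, of which 1 rose and 0 fell (limma). The one that fell was Col20a1, by 0.46 (SE 0.12), and the one that rose was Col4a1, a chain of the basement membrane collagen IV, by 0.34 (SE 0.09). Their median log2 changes were -0.04 and -0.01, against -0.02 over all genes. Below the median gene's 5.74 lay 11 of the 14 and 13 of the 18, against 4 of the 10 members. At such values a change can be compressed, so the few calls do not show that these genes were unchanged. The groups did not overlap in 1 of the 14 and in 4 of the 18, against 32.6% of all genes. Of all genes 14.7% passed, 7.98% upward and 6.76% downward, which is the background for the counts of these and the following lists. With averaged probe sets Col20a1 was at -0.25. Both calls were lost without single arrays, Col20a1 in 5 of 6 cases (adjusted p = 0.0557 to 0.0886) and Col4a1 likewise (0.0587 to 0.103), and that of Col4a1 also with quantile normalization again (0.0739) and cyclic loess (0.0674).

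Of 21 enzymes and chaperones that hydroxylate, fold and export procollagen 6 rose, 1 fell and 14 did not pass (median log2 change 0.15). P3h4, a partner of prolyl and lysyl hydroxylases also known as Sc65, went from 7.06 ± 0.04 to 7.71 ± 0.05 (SD, n = 3 each) and rose by 0.65 (SE 0.08). Sec23a, a coat protein of the vesicles that carry procollagen out of the endoplasmic reticulum, rose by 0.84 (SE 0.12). The lysyl hydroxylase Plod3 rose by 0.43 (SE 0.08) and the collagen prolyl isomerase Fkbp14 by 0.49 (SE 0.10). All 4 passed under every alternative run, and Fkbp14 was at 0.31 with averaged probe sets. The lysyl hydroxylases Plod1 and Plod2 rose by 0.59 (SE 0.14) and 0.65 (SE 0.15), and Plod1 was at 0.33 with averaged probe sets. The gene that fell was P4ha2, a catalytic subunit of collagen prolyl 4-hydroxylase, which fell by 0.50 (SE 0.12). The Plod1, Plod2 and P4ha2 calls ended in 4, 3 and 4 of the 6 cases with an array left out (adjusted p = 0.0517 to 0.0851).

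Of 11 genes for procollagen cleavage and crosslinking, 3 rose and 1 fell (median -0.05). Bmp1, the protease that removes the C-terminal propeptide of fibrillar procollagens, rose by 0.66 (SE 0.09, limma adjusted p = 0.00117). The crosslinking enzymes Lox and Loxl1 rose by 1.14 (SE 0.10) and 0.52 (SE 0.08), whereas Loxl4 fell by 0.49 (SE 0.10). The mean of Loxl4, 5.06, lay below the median gene.

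Fibril partners were split, with 4 of 16 rising and 4 falling (median 0.06). Fibronectin (Fn1), on which collagen fibrils are laid down, rose by 1.22 (SE 0.08). The small leucine-rich proteoglycans decorin (Dcn), fibromodulin (Fmod) and osteoglycin (Ogn), which bind fibrils and limit their width, fell by 1.50 (SE 0.12), 1.43 (SE 0.13) and 1.35 (SE 0.16). With averaged probe sets the change of Dcn was -0.68, and its other probe set did not pass. Of the same family biglycan (Bgn) rose by 0.59 (SE 0.13), and Lum, Kera and Prelp had log2 changes of -0.07, -0.01 and -0.05 that did not pass. The means of Bgn, Lum, Kera and Prelp, 5.21, 3.88, 3.89 and 5.37, lay below the median gene, where a change can be compressed. The Bgn call was lost once probe sets were averaged (0.24, adjusted p = 0.0755), and also without stretched replicate 1 (adjusted p = 0.0511).

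Among 13 collagen receptors and uptake genes 1 rose and 2 fell (median 0.07). Antxr1, a cell surface protein that binds collagens, fell by 1.11 (SE 0.14) and Mrc2, which takes collagen into the cell for breakdown, fell by 0.72 (SE 0.10). With averaged probe sets their changes were -0.50 and -0.44, and the other probe set of each did not pass. The mean of Mrc2, 4.90, lay below the median gene. Cd44, mainly a hyaluronan receptor, rose by 0.48 (SE 0.09). The integrin subunit Itga1, a collagen receptor, had a log2 change of -0.13 (adjusted p = 0.379).

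Of 15 collagen-degrading enzymes and their inhibitors 1 rose and 4 fell (median -0.05). The gene that rose was the inhibitor Timp3, by 0.36 (SE 0.10, limma adjusted p = 0.0353). The collagenase gene Mmp8, the strongest fall of the list, went from 6.31 ± 0.17 to 4.75 ± 0.13 (SD, n = 3 each), and thus fell by 1.56 (SE 0.11, limma adjusted p = 2.00e-05). The gelatinase gene Mmp2 fell by 0.50 (SE 0.08), the inhibitor Timp2 fell by 0.38 (SE 0.09) and the dipeptidase Pepd, which recycles proline, fell by 0.32 (SE 0.08). The Timp2 call was lost once probe sets were averaged (adjusted p = 0.272) and without unstretched replicate 2 (0.0550) or stretched replicate 3 (0.0714), and that of Pepd without any single array other than unstretched replicate 3 (0.0531 to 0.103).

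Of 23 regulators of collagen transcription 5 rose and 2 fell (median 0.03). Smad7, the inhibitory Smad of the TGF-beta pathway, rose by 0.52 (SE 0.08), Ets1 by 0.58 (SE 0.10), the actin-sensing coactivator Mrtfa by 0.52 (SE 0.09) and Creb3l1, an endoplasmic reticulum factor that drives collagen I genes, by 0.73 (SE 0.14). The other probe set of Smad7 did not pass. Tgfbr2, a TGF-beta receptor gene, rose by 0.43 (SE 0.10, limma adjusted p = 0.0147). The Kruppel-like factor Klf4 fell by 0.68 (SE 0.14) and Rfx5, a factor of the RFX family, fell by 0.36 (SE 0.08). The Rfx5 call ended without unstretched replicate 2, stretched replicate 1 or stretched replicate 3 (adjusted p = 0.0521 to 0.0695).

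**Figure D4:**
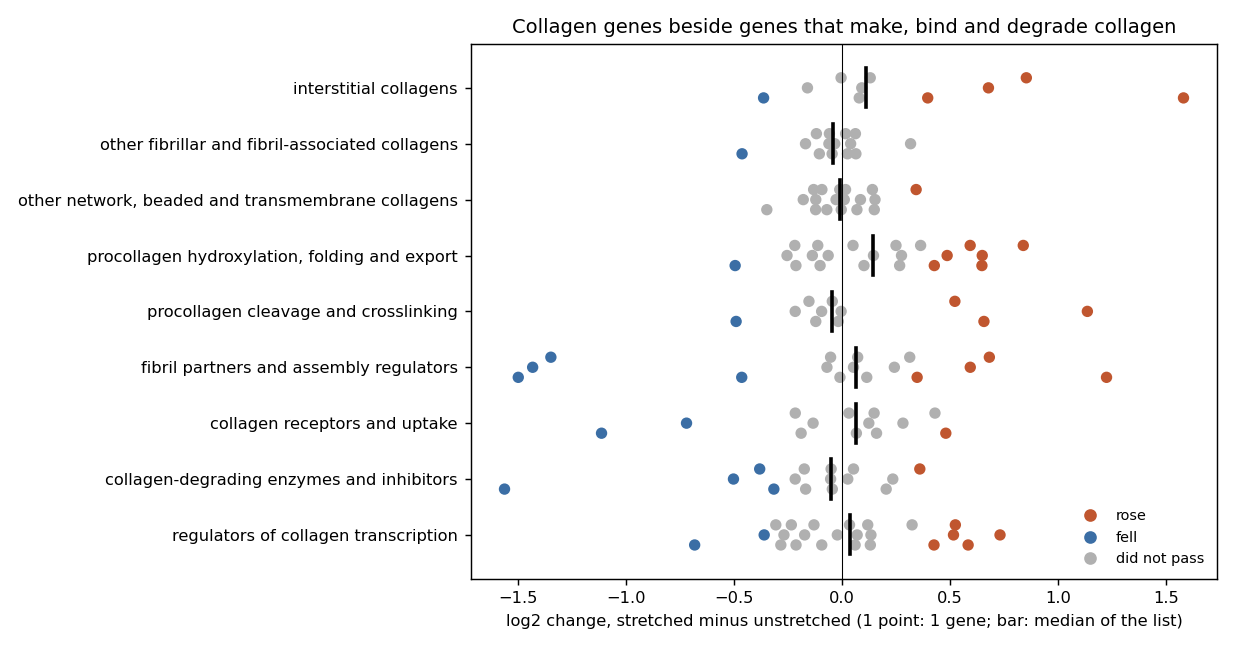
Log2 change between stretched and unstretched cells (x axis) of the 10 interstitial collagens and of 8 lists of genes that make, bind, regulate or degrade collagen, with 1 point for each gene, colours for calls and a bar at each list's median. Fibril partners ran from Dcn at -1.50 to Fn1 at 1.22, and the medians of all lists lie between -0.05 and 0.15.

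Markers of other cells were read beside these results, and their part in them was not tested. Sums over a list are the log2 of its summed linear values on an array. Of 14 podocyte markers 9 had means above the median gene, among them Wt1 at 6.60 and 6.85 in unstretched and stretched cells, Podxl at 7.95 and 7.73, and Synpo at 8.42 and 7.98. Below it lay 5, namely Nphs1 (5.01 and 4.91), Lmx1b (5.64 and 5.37), Ptpro (4.33 and 4.20), Tcf21 (4.20 and 4.11) and Foxc2 (3.49 and 3.45). Nes rose by 0.57 (SE 0.09), Vim by 0.35 (SE 0.09) and Synpo fell by 0.45 (SE 0.08). With averaged probe sets the Nes and Synpo calls ended (0.18 and -0.22, adjusted p = 0.131 and 0.0837) and Vim was at 0.63. The Vim call ended with quantile normalization again (limma adjusted p = 0.0915) and cyclic loess (0.0548). It also ended without unstretched replicate 1 or any single stretched replicate (limma adjusted p = 0.0582 to 0.0839). The summed level was 13.47 to 13.49 in unstretched and 13.69 to 13.71 in stretched cells, of which Vim and Actn4 made 65.1% in unstretched cells, while the list's median log2 change was -0.06.

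Of 11 fibroblast markers 2 rose and 1 fell, and 8 lay below the median gene. S100a4 rose by 1.76 (SE 0.13), from 5.84 to 7.60, and Pdgfrb by 0.41 (SE 0.09), from 8.42 to 8.82, and the third was Dcn, from 8.47 to 6.97. Pdgfrb did not pass with averaged probe sets (0.13, adjusted p = 0.280). Fbln1 was at 5.34 and 5.41 in unstretched and stretched cells, and the other 7 (Pdgfra, Thy1, Dpt, Lum, Fap, Pi16 and Mfap5) had group means between 3.84 and 4.79. None of these 8 passed. The summed level, 74.1% of it Dcn and Pdgfrb in unstretched cells, was 9.81 to 9.93 in unstretched and 9.82 to 10.01 in stretched cells, so the groups overlapped.

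Of 9 mesangial and pericyte markers 1 rose, again Pdgfrb, with sums of 13.42 to 13.44 against 13.57 to 13.61, of which Acta2 made 94.7% in unstretched cells. Acta2 had a log2 change of 0.145, which did not pass (limma adjusted p = 0.260). Of 9 endothelial markers 0 rose and 0 fell in limma, with sums of 8.34 to 8.58 against 8.58 to 8.64. Ehd3 made 53.6% of that sum in unstretched cells, at 7.58 in unstretched and 7.83 in stretched cells, without passing (adjusted p = 0.108). Kdr was at 4.94 and 4.86, Flt1 at 4.90 and 5.17 and Plvap at 5.11 and 4.83, and Pecam1, Cdh5, Tek, Tie1 and Emcn had group means between 3.52 and 3.96.

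Of 9 macrophage markers Csf1r fell by 0.50 (SE 0.11) and Cd68 by 0.89 (SE 0.12), and the other 7 had group means between 3.75 and 5.03. The sums, 69.6% of them Csf1r in unstretched cells, were 9.33 to 9.53 against 8.92 to 9.08. Of 10 parietal epithelial and tubule markers Cldn1 rose by 0.62 (SE 0.11), Pax8 by 0.62 (SE 0.12) and Cubn by 0.49 (SE 0.12). With averaged probe sets the Cldn1 and Pax8 calls ended (0.19 and 0.28, adjusted p = 0.129 and 0.0570). The Cubn call ended without unstretched replicate 2, stretched replicate 1 or stretched replicate 2 (limma adjusted p = 0.0562 to 0.0776). Its mean of 4.84 lay below the median gene. The sums, 80% of them Lrp2 in unstretched cells, were 10.33 to 10.43 against 10.43 to 10.60.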

How the data were processed

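RNA of 6 samples, 3 unstretched and 3 stretched, grouped by title, was measured on Affymetrix mouse arrays. The authors deposited log2 values for each probe set, which RMA produced per the submitters' processing notes. RMA by default corrects background, quantile normalizes and summarises probes, so dim changes are compressed and array totals are equal. The RMA version was not given in the sources used here, nor was a genome build. After 64 controls were left out, 45037 probe sets remained. Symbols came from the platform annotation (34945 with 1 symbol, 932 with several, 9160 unlisted). Each of 18193 genes was read by its brightest probe set, without a filter.

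The difference of stretched from unstretched cells was tested by limma 3.58.1 (lmFit, eBayes) in R 4.3.3 without covariates, adjusted by Benjamini-Hochberg over all genes (or all probe sets where said) and checked on simulated data. Members, lists and tests were chosen with earlier results of these data known. Named were the members, up to 4 called genes of each collagen-related list by size of the moderated statistic, called markers, and the 3 profiles nearest to the called member with the largest moderated statistic. P4ha2, Plod1, Plod2, Bgn, Lum, Kera, Prelp, Itga1, Klf4, Rfx5, Timp3, Tgfbr2 and markers that did not pass were named after their values were seen. Of 214 listed genes 198 were measured. Alternatives tried were a replicate block, fixed or random, leaving out single arrays, 3 scalings, a filter on dim genes, averaged or separate probe sets, and a trended prior.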

Additional observations from a re-analysis of the deposited data

How the results depend on the processing

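Under 15 alternatives Col6a1, Col6a2 and Col5a2 passed each time, Col8a1 in 14 and Col12a1 in 12, and no called member changed direction. Leaving out 1 array gave 3 to 4 members that rose and 0 to 1 that fell, and 872 to 1450 genes that rose and 767 to 1189 that fell in all, the lowest of each without a stretched array. With every probe set tested, 2912 rose and 2030 fell, of more features. Averaged probe sets took the Col5a1 minus Col5a2 shift to 0.021. Signs turned only in genes that did not pass: Col3a1 was at 0.037 with quantile normalization again, 0.023 with median centring and 0.042 with cyclic loess, and Col1a2 was at -0.054 with averaged probe sets. With 1 array left out the log2 changes ran from -0.015 to 0.18 for Col1a1, -0.013 to 0.25 for Col1a2, -0.035 to 0.019 for Col3a1 and -0.31 to 0.0028 for Col6a3. The causes were not tested. Of 44 named genes that are not members, 28 passed wherever tested, and the other 16 lost their call under at least 1 alternative. Among these 16 were Vim (limma adjusted p up to 0.0915) and Cubn (up to 0.0776). Timp3 and Tgfbr2 are not among the 44, and their calls were not followed under the alternatives.

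The labels number the samples alike in both groups but do not say that a number pairs them, and deviations of same-numbered arrays correlated at 0.02, 0.15 and 0.28 over genes. With the replicate block 4 members rose and 1 fell, as without it, and the calls over all genes became 1683 and 1419 with a fixed and 1754 and 1529 with a random block. The adjusted p of Col6a1 was 4.13e-05 with the fixed and 4.73e-04 with the random replicate block. Within numbers the exact permutation p of chain differences cannot go below 0.25. With 3 arrays a group and no detection calls, changes near background cannot be judged.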
